A study of Homo sapiens with 12 samples.

Results

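The response to exposure to hydrogen peroxide or cerium oxide nanoparticles was examined in 6 of the 12 RNA-seq libraries made from HaCaT, an established cell line of human keratinocyte origin. The 6 libraries come from cells carrying a control short hairpin RNA (shControl) or a hairpin against MLL1 (shMLL1). MLL1 is the protein of KMT2A, a methyltransferase of histone H3 lysine 4. For each hairpin there was an untreated library, a library after 24 h with 100 µM hydrogen peroxide (H2O2) and a library after 24 h with 25 µg/mL cerium oxide nanoparticles (CeO2). The other 6 libraries hold the same 3 treatments in cells with a hairpin against UTX (shUTX) or NRF2 (shNRF2), and all 12, the controls included, carry a hairpin. Each combination has 1 library, and nothing in the labels says that libraries came from separate cultures, clones or knockdowns. The p-values therefore measure the spread between these libraries, which may be technical.

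The 4 exposed libraries were set against the 2 untreated ones, with the hairpin as a block. The 2 hairpins were paired with their exposure responses already known. All values of the exposure contrast, and its difference from shUTX and shNRF2, are therefore descriptions of these libraries and no independent evidence. Adjusted p-values are given to show how a change compares with the spread between the libraries. Genes are read by name in 5 stretches of GRCh38, where names and reads match, and in the mitochondrial genome. The stretches are chr5:218241-44820428, chr9:19375715-37801437, chr11:236546-842545, chr18:3247481-12344320 and chr19:867630-6393981. They were chosen from expression levels, not from the exposure response. They hold 1587 of the 61498 entries of the count tables, 535 of them coding. Of these, 483 passed the filter of at least 1 CPM (counts scaled to a common library total) in at least 2 of the 6 libraries, and 373 of the 483 are coding. Overlapping and antisense genes are uncertain, since no source used here says whether the counting used strand. In bulk RNA, fewer cells of a kind and less RNA per cell cannot be told apart.

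Total counts in the 6 libraries ran from 5667417 to 7342021, and the mitochondrial genome took 7.58% to 10.0% of them. KMT2A, the target of the hairpin, lies outside the stretches at chr11:118436464-118526832. It stood at 464, 482 and 494 CPM of total counts in shControl (untreated, H2O2, CeO2) and at 32.0, 99.7 and 35.6 CPM in shMLL1. The difference was -3.22 ± 0.25 on the log2 scale (SE, edgeR adjusted p = 5.97e-08), and no shMLL1 library reached a shControl library. Names and reads are taken to match only inside the stretches, and whether the reads under this name come from KMT2A was not tested. Of the keratinocyte markers, AQP3 and TINCR lie in the stretches and were detected in all 6 libraries, whereas KRT5, KRT14, KRT1, KRT10 and TP63 lie outside them and were not read. Of the 5 markers of other cells that lie in the stretches, IL7R made up nearly all of the summed 436 to 621 CPM, and PAX5, TEK, CCL21 and CCL19 were at or near 0.

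Mitochondria make ATP with respiratory chain complexes that join subunits from both genomes: 13 proteins are encoded by mitochondrial DNA, and the rest are imported from the cytosol. Hydrogen peroxide is held in check in part by peroxidases. GPX4 is the selenium-dependent member that reduces lipid peroxides and thereby guards cells against ferroptosis. Ribosomal proteins of the cytosol and of mitochondria are encoded by housekeeping genes, many with ETS or NRF1 (nuclear respiratory factor 1) motifs in their promoters.

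The promoters of 4 genes named in the results are printed here: GPX4, a short nuclear gene that was higher after exposure, and 3 genes that were lower, namely the complex I subunit NDUFB6, the complex III subunit UQCR11 and the ribosomal protein RPS6. The sequences come from the RefSeq windows of GRCh38.p14, written 5′ to 3′ on the strand of the gene, and end at the base before the gene's earliest annotated start. Capitals mark the ETS motif CCGGAAG or its reverse complement. The windows are chr19:1103744-1103925 (+), chr9:32573185-32573409 (-), chr19:1605491-1605712 (-) and chr9:19380255-19380486 (-).
GPX4: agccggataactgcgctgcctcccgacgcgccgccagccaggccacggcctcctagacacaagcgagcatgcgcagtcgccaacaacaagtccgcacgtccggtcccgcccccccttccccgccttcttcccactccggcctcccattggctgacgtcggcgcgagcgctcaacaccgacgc
NDUFB6: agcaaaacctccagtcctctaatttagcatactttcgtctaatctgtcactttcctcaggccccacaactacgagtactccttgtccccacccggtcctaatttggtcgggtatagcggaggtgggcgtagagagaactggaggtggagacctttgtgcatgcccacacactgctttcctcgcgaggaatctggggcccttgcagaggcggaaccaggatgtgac
UQCR11: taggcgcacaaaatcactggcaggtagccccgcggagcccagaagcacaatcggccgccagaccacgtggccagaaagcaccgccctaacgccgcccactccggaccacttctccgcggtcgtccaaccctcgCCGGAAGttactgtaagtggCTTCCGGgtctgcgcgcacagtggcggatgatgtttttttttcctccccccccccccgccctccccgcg
RPS6: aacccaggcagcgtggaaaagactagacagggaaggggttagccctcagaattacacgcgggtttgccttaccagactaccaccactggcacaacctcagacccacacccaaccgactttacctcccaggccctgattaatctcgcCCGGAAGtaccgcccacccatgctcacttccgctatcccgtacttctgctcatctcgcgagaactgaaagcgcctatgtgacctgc
UQCR11 held ETS matches 89 and 69 bases before its annotated start, 1 on each strand, and RPS6 held a match 86 bases before it. The UQCR11 window also held 2 NRF1 matches, 1 that starts at the base before the annotated start and 1 past it, outside the printed part. The letters CCGGAAG, the antioxidant response element TGACNNNGC and the NRF1 motif (GCGC, any base, then TGCGC) were searched on both strands, and a base could belong to matches of more than 1 motif. None of the 3 was found in the GPX4 or NDUFB6 window, which says only that these letters are not in this window. Windows of 250 bases were matched for 311 of the 360 nuclear coding genes tested in the stretches. Of these 311, 16.4% held the ETS motif, 12.9% the NRF1 motif and 13.8% the antioxidant element, against 8.52%, 5.07% and 10.9% of all 35116 windows. Among the 87 matched genes that were lower after exposure the shares were 25.3%, 21.8% and 18.4%. Of the 13 matched genes that were higher, 2 held the ETS motif and 0 held either of the others. Of 7 nuclear respiratory chain genes with a window, 1 held the ETS motif, namely UQCR11, and 3 the NRF1 motif. Of 4 cytosolic ribosomal protein genes with a window, 2 held the ETS motif and 1 the NRF1 motif. Among 6 redox and iron genes the numbers were 0 and 1. A match is a description of the letters, not a site.

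After exposure, 7 of 8 nuclear respiratory chain genes and 5 of 5 cytosolic ribosomal protein genes were lower, and a smaller set of mostly long genes was higher. Of 13 mitochondrially encoded protein genes 4 were lower and 1 was higher, with a median log2 change (-0.21) near that of the stretches (-0.18). In the stretches 111 entries were lower (23% of 483) and 16 were higher (3.31%) at an adjusted p under 0.05. Over all 10617 entries tested, 1100 were lower (10.4%) and 1126 higher (10.6%). The median log2 change was -0.18 in the stretches and 0.00 over all entries. When libraries were scaled on the coding genes of the stretches, the median of all entries moved to 0.20, the calls over all entries became 1861 higher (17.5%) and 188 lower (1.77%), and those in the stretches 46 higher and 21 lower. Directions below are relative to the scaling over all entries. Each of the 111 lower and 16 higher entries moved the same way in all 4 exposed libraries against the untreated library of its hairpin. The entries were called from these same libraries, and the ratios of a hairpin share its untreated library. Agreement in sign or level among them is therefore a description and no further support. Levels of the untreated and exposed libraries did not overlap for 95 of the 127. This was the case for 28.2% of entries in the stretches in the lower direction and 4.55% in the higher direction, against 16.4% and 16.6% of all entries.

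All of these calls depend on the untreated shControl library. Without it the fit rests on shMLL1 alone, 0 of the 127 entries stay called, and 16 are called over all entries; without the untreated shMLL1 library 163 entries of the stretches are called, 116 of them among the 127. The count in the stretches was 84 without the H2O2 library of shControl and 58 without its CeO2 library, which also brought the count over all entries to 1217. Changes were larger in shControl than in shMLL1 for 104 of the 111 lower and 16 of the 16 higher entries. The scaling factor of the untreated shControl library was 0.900, that of untreated shMLL1 0.971, and those of the exposed libraries lay between 1.02 and 1.04. The part of this library in the results was not tested.

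**Figure D1:**
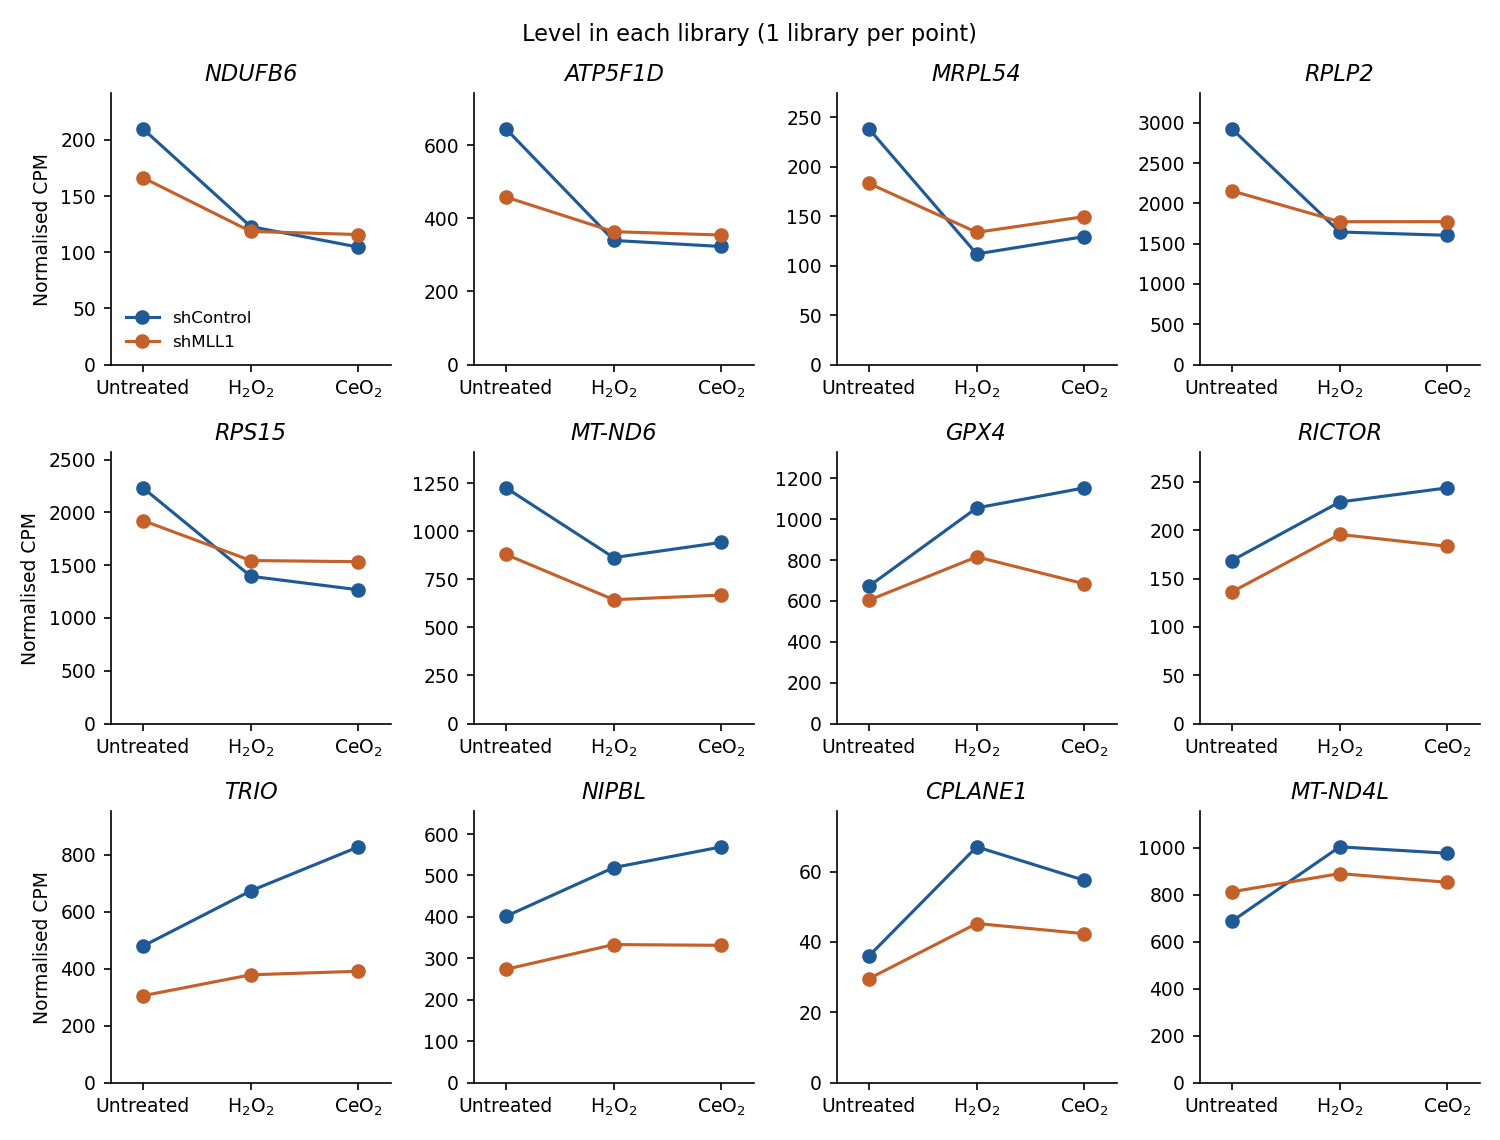
Normalised CPM (y axes, from 0) of 12 genes in the 6 libraries, 1 point per library, with shControl and shMLL1 joined separately across untreated, H2O2 and CeO2. NDUFB6 lies at 105 to 123 in the exposed shControl libraries against 210 untreated, whereas GPX4 lies at 1055 to 1153 against 672.

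Nuclear genes of the respiratory chain were lower. Of the 8 subunits tested, 7 fell, 0 rose, and SDHA did not pass. Their median log2 change was -0.48. Beside this, 23% of all entries of the stretches and 10.4% over all entries were lower. Among coding genes with a longest transcript of 207 to 2100 bases the share was 58.5%, with a median of -0.39. NDUFB6 (chr9:32552999-32573184), an accessory subunit of complex I, stood at 210, 123 and 105 normalised CPM in shControl and at 166, 118 and 116 in shMLL1, in the order untreated, H2O2, CeO2 used from here on. Every exposed level lay below both untreated levels. Its log2 change was -0.70 ± 0.11 (SE, edgeR adjusted p = 0.00056). NDUFB6 overlaps SMIM27, and its reads could be shared with it. ATP5F1D (chr19:1241746-1244826), the delta subunit of the ATP synthase, stood at 644, 339 and 323 in shControl and at 458, 363 and 354 in shMLL1. The groups did not overlap, and the change was -0.67 ± 0.11 (edgeR adjusted p = 0.000913). In shControl the change was -0.96 and in shMLL1 -0.35.

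The other complex I subunits of the list moved less. NDUFS6, an accessory subunit, stood at 436, 251 and 239 in shControl and at 226, 180 and 197 in shMLL1, so that the shControl exposed levels stayed above the untreated level of shMLL1. Its change was -0.56 ± 0.11 (edgeR adjusted p = 0.00273). NDUFA11 and NDUFS7 changed by -0.48 and -0.47, NDUFV2 by -0.40, and UQCR11 of complex III by -0.47. SDHA, the flavoprotein subunit of complex II, stood at 840, 675 and 695 in shControl and at 455, 432 and 457 in shMLL1. Its change of -0.17 did not pass (edgeR adjusted p = 0.213), and its shMLL1 levels were close to each other. MICOS13, a subunit of the complex that shapes the cristae of the inner membrane, changed by -0.61, but it overlaps RPL36.

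Of the 13 proteins encoded by mitochondrial DNA, 4 were lower, 1 was higher and 8 did not pass, with a median log2 change of -0.21. Among all entries of the stretches 23% were lower, with a median of -0.18. MT-ND6, the only protein gene on the light strand, stood at 1226, 863 and 942 in shControl and at 879, 644 and 668 in shMLL1. In both hairpins the exposed levels lay below the untreated level, and the change was -0.43 ± 0.09 (edgeR adjusted p = 0.00283). It was nearly the same in shControl (-0.44) and shMLL1 (-0.42). The complex I subunit MT-ND3 stood at 1465, 1172 and 818 in shControl and at 1285, 1027 and 878 in shMLL1, a change of -0.50 with the CeO2 libraries lowest in each hairpin. The cytochrome c oxidase subunits MT-CO2 and MT-CO3 changed by -0.30 and -0.35, and MT-CO1 by -0.21 without passing (edgeR adjusted p = 0.0903). MT-ND4L stood at 687, 1005 and 977 in shControl and at 813, 891 and 854 in shMLL1, a change of 0.31 ± 0.10 (edgeR adjusted p = 0.0379). It shares bases with MT-ND4, which changed by -0.10 and did not pass, so reads of the pair may be split between them. Both mitochondrial ribosomal RNAs were lower, MT-RNR1 by -0.35 and MT-RNR2 by -0.32. With H2O2 alone 0 of these 2 RNAs passed (median -0.20), and with CeO2 alone both did (-0.49). Of the 13 protein genes, 1 was lower with H2O2 (median -0.13) and 4 with CeO2 (-0.26). In the direct comparison of the agents 0 entries of the stretches differed.

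Of 8 genes for the mitochondrial ribosome, protein import and proteases, 4 were lower and 0 higher, with a median of -0.33. Beside this, 23% of all entries of the stretches and 10.4% over all entries were lower. The median length of the longest annotated transcripts of the 8 was 2522 bases. Among coding genes of 2124 to 3339 bases 32.3% were lower. MRPL54 (chr19:3762664-3768575), a protein of the large mitochondrial ribosomal subunit, stood at 238, 112 and 129 in shControl and at 183, 134 and 149 in shMLL1. Its exposed levels all lay below its untreated levels, and the change was -0.69 ± 0.12 (edgeR adjusted p = 0.0013). MRPL36 of the same subunit changed by -0.46. TIMM13, a chaperone of the intermembrane space, changed by -0.51 and CLPP, a matrix protease, by -0.42. The protease LONP1 (-0.19), the ribosomal protein MRPS30 (-0.22), the import pore subunit TOMM5 (-0.24) and the transhydrogenase NNT (0.10) did not pass.

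All 5 cytosolic ribosomal proteins that could be read were lower, with a median of -0.54. Among coding genes with a longest transcript of 207 to 2100 bases 58.5% were lower, with a median of -0.39. RPLP2 (chr11:809647-812880), an acidic protein of the stalk, stood at 2924, 1645 and 1603 in shControl and at 2155, 1772 and 1773 in shMLL1. The exposed levels of the 4 libraries fell between 1603 and 1773, below both untreated levels, and the change was -0.57 ± 0.11 (edgeR adjusted p = 0.00177). RPS15 stood at 2232, 1394 and 1266 in shControl and at 1922, 1544 and 1533 in shMLL1, a change of -0.54. RPS6, the target of S6 kinase, stood at 4488, 3366 and 3108 in shControl and at 3992, 3187 and 3012 in shMLL1, a change of -0.42. RPL36 changed by -0.55 and RPL37 by -0.39, with no overlap between untreated and exposed levels in either. Of 8 genes for ribosome assembly and translation, 3 were lower (BRIX1, EXOSC3 and DOHH), beside 23% of all entries of the stretches and 10.4% over all entries. The elongation factor EEF2 stood between 11372 and 13499 in all 6 libraries and did not pass (-0.06, edgeR adjusted p = 0.705).

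GPX4 (chr19:1103926-1106791) was higher after exposure and overlaps no annotated gene. It stood at 672, 1055 and 1153 in shControl and at 603, 815 and 683 in shMLL1. All 4 exposed levels lay above both untreated levels, although the CeO2 library of shMLL1, at 683, was close to the untreated shControl library. The log2 change was 0.51 ± 0.11 (edgeR adjusted p = 0.00415), with 0.72 in shControl and 0.31 in shMLL1. In shUTX and shNRF2 the change was -0.00. Without the untreated shControl library it was 0.31 (edgeR adjusted p = 0.262). Among the 6 redox and iron genes, GPX4 alone rose, and TALDO1, an enzyme of the pentose phosphate pathway, fell by 0.42 on the log2 scale. Beside this, 3.31% of entries in the stretches were higher and 23% lower, and 10.6% and 10.4% over all entries. ACO1, NNT, SDHA and SELENOP did not pass, and SELENOP was under 2 CPM in all 6 libraries.

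The 12 highest changes in the stretches were, apart from GPX4 and the pseudogene MSNP1, those of genes with long transcripts. CPLANE1 (chr5:37106228-37249428), a ciliary gene, stood at 36.0, 67.1 and 57.5 in shControl and at 29.6, 45.3 and 42.4 in shMLL1. Each exposed level lay above both untreated levels, and the change was 0.68 ± 0.13 (edgeR adjusted p = 0.00211). PDZD2, a protein with several PDZ domains, stood at 126, 202 and 218 in shControl and at 116, 168 and 159 in shMLL1, a change of 0.61 ± 0.10 (edgeR adjusted p = 0.000865). RICTOR, the defining subunit of the kinase complex mTORC2, stood at 169, 229 and 244 in shControl and at 136, 196 and 183 in shMLL1. Its levels did not overlap, and its change was nearly the same in shControl (0.49) and shMLL1 (0.48). It overlaps the 3′ end of OSMR, which changed by 0.28.

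Other long genes moved the same way within each hairpin, but with levels that overlap between the hairpins. TRIO stood at 479, 673 and 827 in shControl and at 305, 378 and 391 in shMLL1, a change of 0.49 ± 0.11 (edgeR adjusted p = 0.00458). NIPBL, which loads cohesin onto chromatin, stood at 401, 519 and 569 in shControl and at 273, 333 and 331 in shMLL1, a change of 0.36. SEMA5A, a semaphorin, stood at 163, 230 and 273 in shControl and at 31.9, 45.6 and 36.5 in shMLL1, a change of 0.51. ADAMTS12 (0.43), LMBRD2 (0.42), the receptor gene LIFR (0.40) and ANKRD12 (0.34) complete the 12.

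Of the 12 lowest changes, 4 are not coding genes. IRX2-DT, a noncoding RNA that starts beside IRX2, stood at 88.2, 50.5 and 43.3 in shControl and at 33.6, 23.2 and 22.7 in shMLL1, a change of -0.75 ± 0.13 (edgeR adjusted p = 0.00108). LINC01018 changed by -0.60, the pseudogene SNRPEP4, which lies in TINCR, by -0.58, and the antisense entry ENSG00000269318 by -0.69. The remaining coding genes were ALKBH7, a mitochondrial member of the AlkB family (-0.60), and FAM174C (-0.56).

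In gene groups outside mitochondria and ribosomes, most of the called members were lower. Their counts stand beside shares of 23% lower and 3.31% higher among all entries of the stretches, and of 10.4% and 10.6% over all entries. Of 12 stress and DNA damage genes, 5 were lower and 0 higher (median -0.28). CDKN2A, the gene of the cyclin-dependent kinase inhibitor p16, stood at 309, 195 and 173 in shControl and at 165, 148 and 131 in shMLL1, a change of -0.51. CIRBP, STK11, BAG1 and DNAJA1 were the other 4, at -0.29 to -0.36, whereas GADD45B (-0.29, edgeR adjusted p = 0.106) did not pass. Of 13 ubiquitin, proteasome and chaperone genes 6 were lower and 0 higher (median -0.25), among them the proteasome subunit PSMD13 (-0.40). Of 11 genes of RNA polymerase II, Mediator and RNA processing, 5 were lower, among them the polymerase subunit POLR2L (-0.53) and the spliceosome protein LSM7 (-0.47), and NIPBL was higher (median -0.26).

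Of 15 actin, myosin and adhesion genes 5 were lower, among them the myosin light chains MYL12A (-0.41) and MYL12B (-0.40), and TRIO and SEMA5A were higher. The median was -0.22, against -0.18 in the stretches, where 23% of entries were lower, and 10.4% over all entries. Interferon-linked genes gave 3 lower of 5 (median -0.39). IFITM3, an antiviral membrane protein, stood at 2435, 1460 and 1646 in shControl and at 2477, 2141 and 2280 in shMLL1, a change of -0.41. Growth signalling genes gave 3 lower of 7, HRAS (-0.49), MAP2K2 (-0.42) and STK11 (-0.36), with RICTOR higher (median -0.20). Cytokine receptors gave 2 higher of 5, LIFR and OSMR, with a median of 0.28. In the epidermal list AQP3, a water and glycerol channel, was lower (-0.37), and TINCR, ACER2 and PTGER4 did not pass.

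The remaining lists gave few calls, set against the same 23% lower in the stretches and 10.4% over all entries. Of 7 cell cycle genes TRIP13 was lower (-0.27, median of the list -0.15). Lipid metabolism gave PLIN3 lower of 6 (-0.28, median -0.17), and the chromatin list gave NIPBL higher of 9 (median 0.05). Of the hypoxia genes CA9 was lower: it stood at 60.1, 45.0 and 41.2 in shControl and at 2.75, 1.69 and 2.24 in shMLL1, a change of -0.48 (edgeR adjusted p = 0.0468). MIR210HG changed by -0.46 and did not pass (edgeR adjusted p = 0.0532). Of the listed genes, AFG3L2, HAUS6, CEP192, PTBP1, TUBB4A, GHR, CNTFR, FGF10, GDNF, PLIN2, PLIN5, LPIN2, SMARCA2 and PRDM9 lie outside the stretches or did not pass the filter, and are not counted. Beside these medians, that of all entries tested was 0.00 and that of the stretches -0.18.

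**Figure D2:**
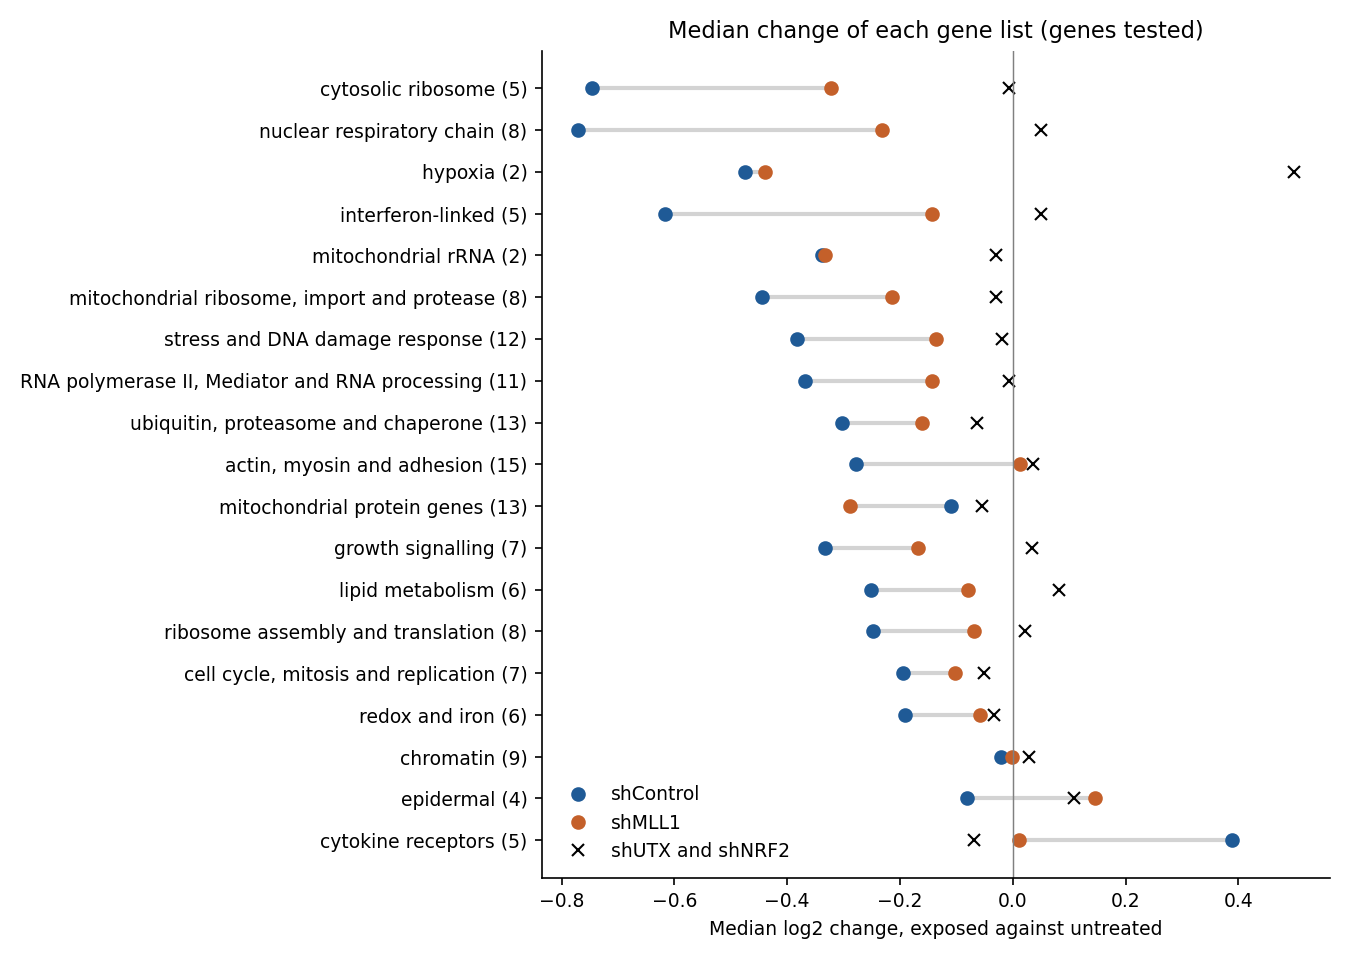
Median log2 change after exposure (x axis) of the tested members of 19 gene lists (y axis), with separate points for shControl, shMLL1, and shUTX and shNRF2 together. Cytosolic ribosomal proteins lie at -0.75 in shControl, -0.32 in shMLL1 and near 0 in shUTX and shNRF2.

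The exposure response rose with transcript length. Length here is that of the longest annotated transcript. Across the 373 coding genes the slope of the log2 ratio per doubling of length was 0.162 for H2O2 and 0.192 for CeO2 in shControl, and 0.098 and 0.099 in shMLL1 (mean 0.138, SD 0.047, n = 4). These ratios use CPM with a pseudocount of 1. The Spearman rank correlation across genes was 0.488, 0.558, 0.455 and 0.505, as a description, since genes are not replicates and the 2 ratios of a hairpin share their untreated library. When the genes were ranked by length in 4 groups of 93 or 94, the shortest (207 to 2100 bases) had 55 lower (58.5%) and 2 higher. The longest (4738 to 15633 bases) had 5 lower (5.38%) and 13 higher (14%). The groups between had 30 lower and 0 higher (2124 to 3339 bases) and 12 lower and 0 higher (3340 to 4671 bases). Median log2 changes of the groups, from short to long, were -0.39, -0.23, -0.11 and 0.06.

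**Figure D3:**
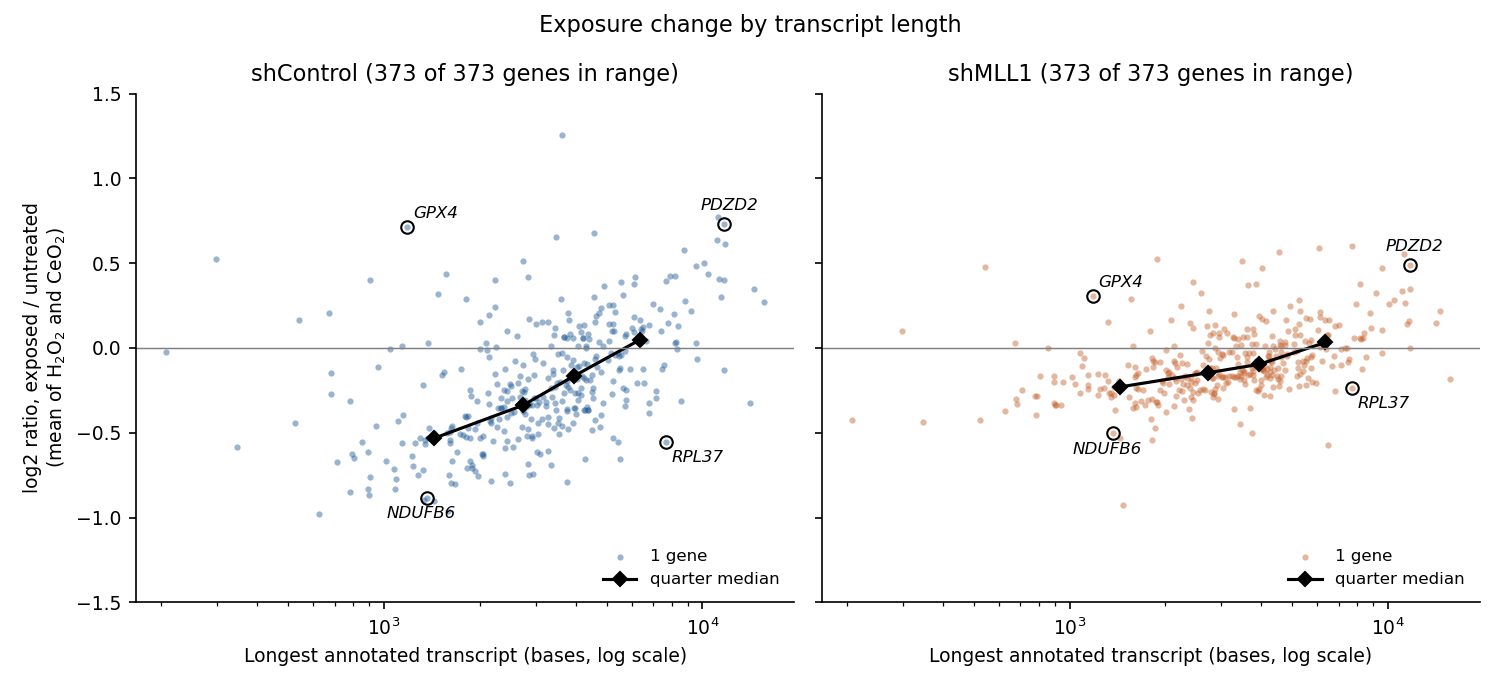
Log2 ratio to the untreated library, mean of both agents (y axis), against the length of the longest transcript in bases (log x axis) for 373 coding genes in shControl (left) and shMLL1 (right). Black diamonds mark the medians of the 4 length groups, which rise from short to long, and GPX4, NDUFB6, RPL37 and PDZD2 are circled; GPX4 lies above most of the other short genes in both panels.

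The slope was above 0 in each stretch. For the fitted exposure change it was 0.25 on chromosome 5, 0.15 on chromosome 9, 0.18 on chromosome 11, 0.19 on chromosome 18, 0.086 on chromosome 19 and 0.038 in the mitochondrial genome. Chromosome 5 held 12 of the 16 higher entries, beside 19 lower ones among 135 tested, and chromosome 19 held 45 of the 111 lower ones among 158. Log2 length and GC content had a Pearson correlation of -0.22 across these genes. With the median instead of the longest transcript of each gene the mean slope was 0.058.

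Library by library, the untreated samples of both hairpins stood apart in their slope on length. Measured for each library against the mean over all 12, the slope was -0.147 for untreated shControl and -0.138 for untreated shMLL1, the lowest of the 12. It was 0.014 and 0.047 for shControl after H2O2 and CeO2, and -0.042 and -0.040 for shMLL1. In shUTX and shNRF2 it ran from 0.020 to 0.081, and their untreated libraries (0.064 and 0.038) lay among their exposed ones. The slope of the response in shUTX and shNRF2 lay between -0.017 and 0.017. Labels give no measure of RNA quality, and the part of library composition in the response was not tested.

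**Figure D4:**
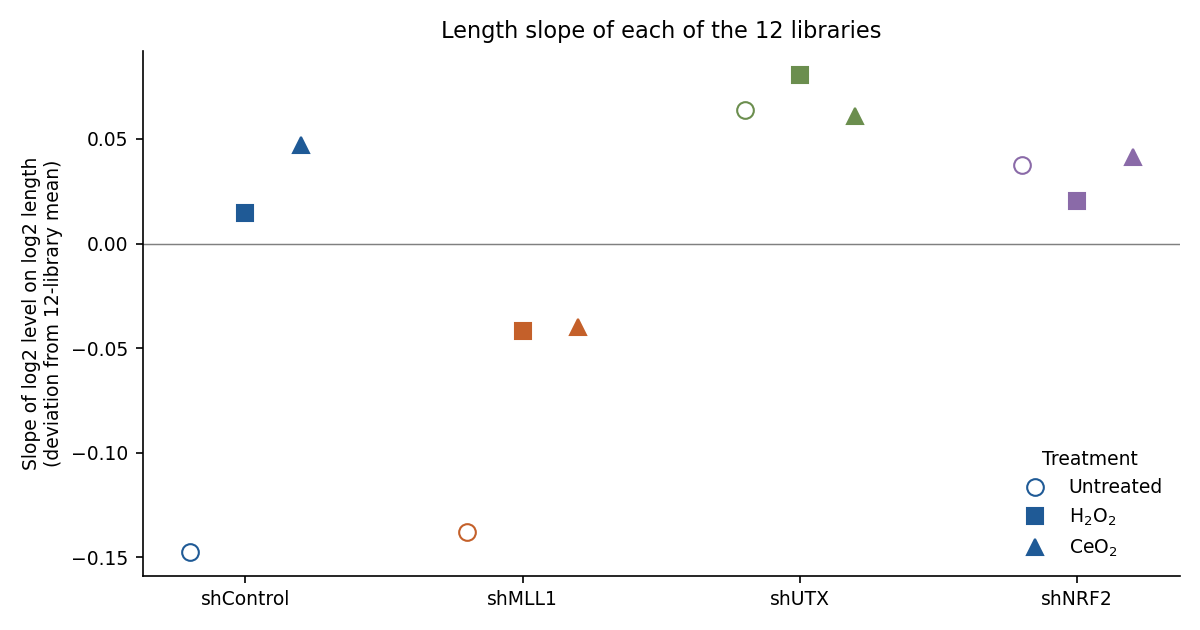
Slope of log2 expression on log2 transcript length in each of the 12 libraries, as the deviation from the mean over libraries (y axis, per doubling of length), by hairpin and treatment (x axis). The untreated shControl (-0.147) and shMLL1 (-0.138) libraries lie below the other 10.

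When the smooth trend with length was taken out of each library, 29 entries of the stretches (6%) were called, 19 higher (3.93%) and 10 lower (2.07%), relative to genes of like length. Of the 127 entries, 17 were among the 29, and 12 of the 29 were called only then. Over all entries 10.5% were higher and 9.39% lower, and entries outside the stretches were not corrected. NDUFB6 (-0.33, edgeR adjusted p = 0.021) and ATP5F1D (-0.32, edgeR adjusted p = 0.024) stayed lower, as did IRX2-DT (-0.38). RPLP2 (-0.16), MRPL54 (-0.26), RPS15 (-0.19) and MT-ND6 (-0.02) no longer passed. For RPLP2 and MRPL54 this depended on the measure of length. With the trend on median transcript length removed instead, 37 entries of the stretches were higher and 22 lower. RPLP2 (-0.35, edgeR adjusted p = 0.0171) and MRPL54 (-0.47, edgeR adjusted p = 0.0089) then passed, whereas LINC01018 (-0.40) and ENSG00000269318 (-0.52) did not. With the longest transcript as the length, lower calls fell to 0 for the mitochondrial ribosome, import and protease list (median -0.05) and for stress and DNA damage (-0.08). They also fell to 0 for ubiquitin, proteasome and chaperone (-0.01) and for RNA polymerase II, Mediator and RNA processing (-0.04). The same held for interferon-linked (0.015) and growth signalling genes (-0.08). Of 15 actin, myosin and adhesion genes 1 was lower (0.02). Of the nuclear respiratory chain list 2 of 8 were lower (median -0.18), and of the cytosolic ribosomal proteins 1 of 5 (median -0.16).

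That ribosomal protein was RPL37, whose longest annotated transcript has 7686 bases and whose change was -0.52 against genes of that length. This value rests on the longest transcript as the length, and which RPL37 transcript the reads came from was not tested. With transcripts of 6815 and 5518 bases, VAPA (-0.39) and the repressor subunit MBD3 (-0.43) were lower in this fit too. GPX4, with a transcript of 1184 bases, had a change of 0.88 (edgeR adjusted p = 0.000661) against 0.51 as measured. Removal of the trend raises short genes, whose shortest group had a median of -0.39, so the larger value is no added support. With median transcript length the value was 0.73 (edgeR adjusted p = 0.000937). The trend was fitted over all stretches, and the slope on chromosome 19, where GPX4 lies, was 0.086. PDZD2 (0.32), CPLANE1 (0.40), RICTOR (0.27) and OSMR (0.29) stayed higher, whereas TRIO (0.21) and NIPBL (0.11) did not pass. With the trend on median length removed instead, TRIO (0.71, edgeR adjusted p = 0.000865) and NIPBL (0.50, edgeR adjusted p = 0.00204) passed. With the longest transcript as the length, MT-ND4L (0.71) and MT-ND5 (0.44) of the mitochondrial genome were higher, and 0 of its 13 protein genes were lower. The trend was fitted across coding genes of all stretches together, most of them nuclear, whereas the slope in the mitochondrial genome was 0.038. Its removal moved the median of the 13 from -0.21 to 0.18. The calls and lost calls there, MT-ND6 included, may therefore come from the correction, and a separate trend for this genome was not tested.

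**Figure D5:**
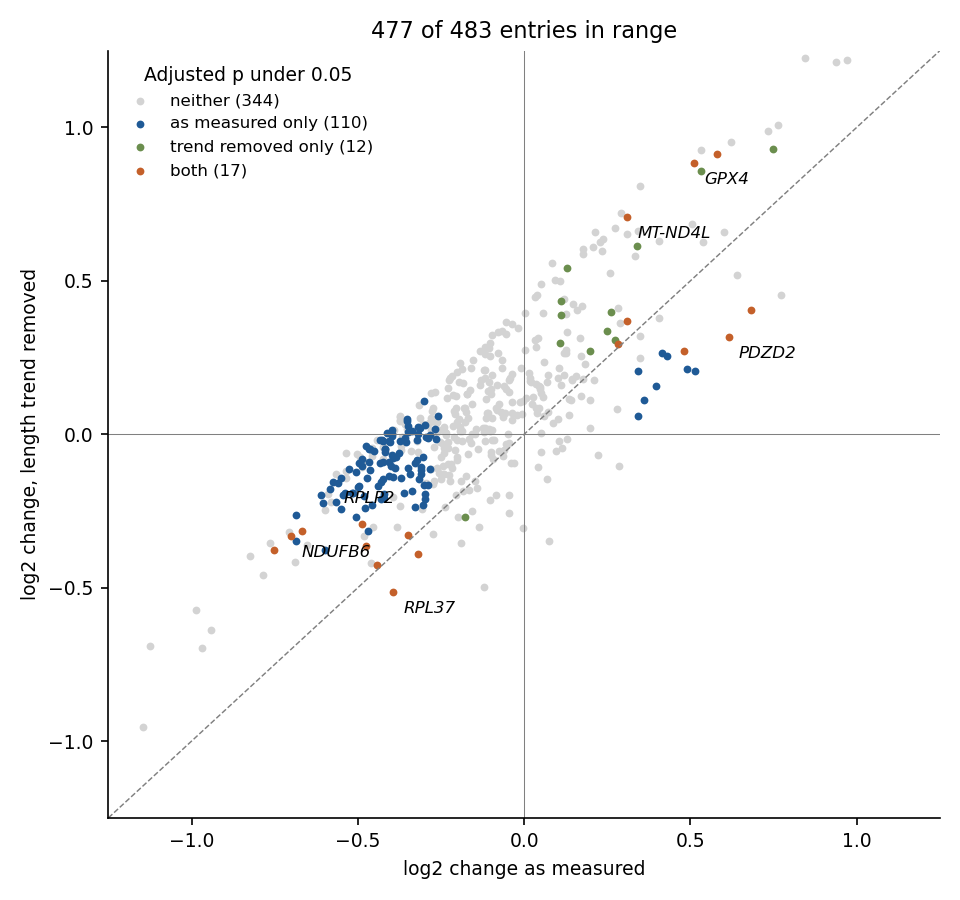
Log2 change after exposure with the length trend removed (y axis) against the change as measured (x axis) for 477 of the 483 entries of the stretches. Colours mark the calls, and of all 483 entries, those outside the drawn range included, 17 were called both ways, 110 as measured only, 12 with the trend removed only and 344 neither way; GPX4 lies at 0.51 as measured and at 0.88 with the trend removed.

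Taken alone, H2O2 gave 9 higher (1.86% of 483) and 70 lower entries (14.5%) in the stretches, against 6.42% higher and 5.49% lower over all entries. CeO2 gave 11 higher (2.28%) and 81 lower (16.8%), against 8.8% and 7.19%. Both agents are set against the same untreated libraries. The H2O2 count of 79 in the stretches became 5, 0 and 34 without the untreated, H2O2 or CeO2 library of shControl, and 174, 14 and 43 without those of shMLL1. The CeO2 count of 92 became 35, 34 and 1 without those of shControl, and 202, 34 and 55 without those of shMLL1. MRPL54 changed by -0.78 with H2O2 and -0.60 with CeO2, NDUFB6 by -0.64 and -0.77, GPX4 by 0.54 and 0.48, and RICTOR by 0.48 and 0.48. HINT2, a mitochondrial nucleotide hydrolase, was among the 5 lowest with H2O2 (-0.65, with -0.46 for CeO2). MT-ND3 was among the 5 lowest with CeO2 (-0.69), and its H2O2 value was -0.32 (edgeR adjusted p = 0.064). The pseudogene CLIC4P1 had the highest H2O2 value (1.44), but its CeO2 libraries lay on opposite sides, at 3.66 normalised CPM in shControl and 23.6 in shMLL1.

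The agents were also compared with each other. Across all entries 2 differed (0.0188%), and 0 in the stretches, where 18 had an unadjusted p under 0.05; DESeq2 called 0 in the stretches and 0 in all, and limma-voom 0 and 2. MT-ND3 was higher by 0.37 ± 0.11 in H2O2 than in CeO2 libraries (edgeR adjusted p = 0.761), MT-RNR1 by 0.31 and CDKN2B, a cyclin-dependent kinase inhibitor, by 0.46. PLIN4 was lower by 0.84 in the fit, resting on 2.03 CPM in the H2O2 library of shMLL1 against 6.28 to 7.55 in the other 5 libraries. Leaving out either exposed library of shMLL1 gave 2 calls in the stretches, and leaving out any 1 of the 6 libraries gave 6 to 29 over all entries. With 2 libraries per agent, a p that misses the threshold does not show that the agents act alike.

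Changes were mostly larger in shControl than in shMLL1, but the difference did not pass in the stretches. Across all entries 2 responses differed (0.0188%) by edgeR, and 0 in the stretches, where 76 had an unadjusted p under 0.05. DESeq2 called 21 in all and 3 in the stretches, and limma-voom 1 and 0. The median difference, shMLL1 minus shControl, was 0.13 in the stretches. The mitochondrially encoded protein genes went the other way, with a median change of -0.11 in shControl and -0.29 in shMLL1, a difference between medians that was not tested. For single genes the response in shMLL1 minus that in shControl was 0.57 for RPLP2, 0.61 for ATP5F1D, 0.67 for NDUFS7 and 0.64 for POLR2L, each with an edgeR adjusted p of 0.234. GPX4 had -0.40 (edgeR adjusted p = 0.349). Without the H2O2 library of shControl 32 entries of the stretches were called, without its CeO2 library 24, and without the CeO2 library of shMLL1 1; over all entries, leaving out 1 exposed library gave 13 to 426. The untreated libraries cannot be left out here.

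In the fit to all 12 libraries, the response differed from that of shUTX and shNRF2 in 663 of 11244 entries (5.9%) and in 47 of 498 in the stretches (9.44%). In the stretches 39 were lower (7.83%) and 8 higher (1.61%), against 1.86% lower and 4.04% higher over all entries. The pairs were formed with these responses known. Exposure in shUTX and shNRF2 gave 1 call in all (0.00889%) and 0 in the stretches (18 with an unadjusted p under 0.05), and the median there was -0.01. The lower entries included ATP5F1D (difference -0.70), CDKN2A (-0.64), the deacetylase gene SIRT6 (-0.59), NDUFA11 (-0.59), NDUFB6 (-0.56) and all of RPLP2, RPS15, RPL36 and RPS6. All 8 higher ones had longest transcripts of at least 7927 bases, and RICTOR (0.57 ± 0.11, edgeR adjusted p = 0.00454), LMBRD2, LIFR and PDZD2 led them. The widest difference was that of CA9 (-1.19), a carbonic anhydrase gene known for its induction by hypoxia, which had 0.73 in shUTX and shNRF2. GPX4 did not pass (edgeR adjusted p = 0.054). Without the untreated shControl library the difference was called for 0 entries, and without the untreated shMLL1 library for 1953, 128 of them in the stretches; without the H2O2 or the CeO2 library of shControl it was called for 31 or 25 in the stretches. With the length trend removed 8 entries of the stretches differed.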

How the data were processed

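The authors deposited unnormalised read counts for Ensembl genes as 2 tables, 1 per agent, and both tables hold the same untreated counts for these 6 libraries. The submitters' processing notes name HTSeq 0.11.1, HISAT2 2.2.1, Trimmomatic 0.39, SAMtools 1.12 and the build GRCh38; no source used here gives their settings or the annotation. Of 61498 entries, 61399 matched a gene name and 58298 matched GENCODE 29, which gave coordinates and transcript lengths. The number of columns left unused was 0.

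Counts were fitted with edgeR 4.0.16 (TMM scaling, quasi-likelihood test, two-sided, Benjamini-Hochberg over all entries tested, threshold 0.05). The hairpin was a block, with 3 residual degrees of freedom for exposure, 2 for the agents and for exposure by hairpin, and 6 for the fit to 12 libraries. The SE is the log2 change divided by the square root of F. Normalised CPM are scaled by TMM. The length trend was taken out by loess offsets (span 0.75) fitted per library across 334 coding genes of the stretches and applied to their entries. Named genes are the 12 highest and 12 lowest exposure changes past the threshold, and the 5 each way in other contrasts, with a mean level no lower than 5 CPM and an equal sign in the exposed libraries; members of gene lists serve as examples. MBD3, SIRT6 and the genes of overlaps, which lie outside this rule and the lists, were chosen after their values were seen. The members and lists were chosen with earlier results of these data known. The code was tested on simulated counts. Other settings were other size factors and filters, DESeq2 1.42.0, limma-voom (limma 3.58.1), other corrections and each library left out.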

Additional observations from a re-analysis of the deposited data

Results flagged for a closer look

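By a test of the difference itself, 2 entries responded differently in shMLL1 and shControl, none of them in the stretches read by name. In the fit to all 12 libraries, 663 entries responded differently in shControl and shMLL1 from shUTX and shNRF2, and 47 of these lie in the stretches. The pairs were formed with these responses known, and 0 entries remain without the untreated shControl library. Of 24 groups of exposed libraries, 1 for each named gene, 0 had a library that stood apart from the other 3 by Dixon's test. The genes were named for an equal sign in these libraries, and the ratios of a hairpin share their untreated library. The outcome is therefore a description and no support.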

How the results depend on the processing

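No paired analysis was possible because the labels carry no replicate numbers, apart from the pairing within each hairpin, which the fits already hold as a block. Without that block, exposure gave 4 calls in all and 0 in the stretches. In the stretches, removal of the length trend, of the length and GC trend, of the trend with median length, and scaling on the stretches gave 29, 26, 59 and 67 calls for exposure, 16, 13, 41 and 29 for H2O2, and 15, 15, 43 and 41 for CeO2; for the difference from shUTX and shNRF2 the first 3 gave 8, 9 and 28. DESeq2 called 641 for H2O2 and 878 for CeO2 in all; the fit to 12 libraries called 2133 (133 in the stretches) and 2587 (159). Between the agents, no filter on low counts gave 33 calls (1 in the stretches), DESeq2 0 and scaling on the stretches 0. Between the hairpins, no filter gave 75 (5), DESeq2 21 (3), limma-voom 1 and the fit to 12 libraries 1. The mean length slope was 0.0577 with median transcript lengths. Leaving out 1 library at a time, counts in all and in the stretches ran over 16 to 2758 and 0 to 163 for exposure, 94 to 2887 and 0 to 174 for H2O2, 94 to 3181 and 1 to 202 for CeO2, 6 to 29 and 0 to 2 between the agents, 13 to 426 and 0 to 32 between the hairpins, and 0 to 1953 and 0 to 128 for the difference. Fits without an untreated library rest on the other hairpin alone, by construction. The sign of ANKRD12 turned with length and GC removed (-0.014), and that of CLIC4P1 between the agents turned without the CeO2 library of shControl, with a range of -0.0061 to 3.71 over the left-out libraries. None of the 24 genes named for exposure passed without the untreated shControl library. For these genes, 350 of the repeats kept sign and call, 105 kept the sign only and 1 turned. Otherwise the cause was not tested.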
